A study of Schizosaccharomyces pombe with 3 samples.

Results

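The 450 open reading frames (ORFs) described here gave the lowest signal in a chromatin immunoprecipitation of Tup11 in fission yeast, relative to input DNA. The direction of the ratio is assumed, as set out below. An ORF was taken when its centred log2 ratio of precipitate to input was -1 or less on each of the 2 arrays of print batch E120D, which means at least 2-fold below the median of all yeast features of the array. The 450 ORFs are 16.7% of the 2693 ORF features that gave a ratio on both E120D arrays, and the array carried 5033 ORF features in all. These ORFs were chosen by their E120D ratios, so their level on those arrays is a description with no test.

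Cells of Schizosaccharomyces pombe with Tup11 fused to green fluorescent protein (Tup11-GFP) were harvested in mid-log growth in rich YES medium, and the fused protein was precipitated from crosslinked, sonicated chromatin with an antibody against the tag. Per the labels' protocols, amplified input DNA carried Cy3 and amplified precipitate carried Cy5, and both were hybridised to one spotted array of ORF and intergenic PCR products. The 3 arrays form 1 group: replicates 1 and 2 are E120D slides and replicate 3 is an F060D slide. No untagged strain, other strain or other medium was analysed here, so each value is precipitate over input within the one tagged strain.

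Tup11 is a WD-repeat corepressor related to Tup1 of budding yeast. It does not bind DNA itself and is brought to promoters together with Ssn6 by sequence-specific repressors. It is best known for holding down genes of gluconeogenesis, stress response and metal uptake. Corepressors of this kind act mainly at promoters in the nucleus, and mitochondrial DNA lies outside it.

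The scanner files name their channels A and B without a dye. On E120D the ratio was taken as channel B over channel A, a direction that was assumed and that the files do not settle. Were it the opposite, the set would hold ORFs high in precipitate. Read with the same letters, replicate 3 correlated negatively with the others over all yeast features they share (Pearson r = -0.54 with replicate 1 over 7720 features and -0.40 with replicate 2 over 4344), whereas r was 0.73 between the E120D slides (4239 features). F060D was therefore read as channel A over channel B, a likely but unsettled direction. Under the other reading every F060D value below changes its sign. Counts of F060D values that way are given as counts with the sign turned. The F060D input and precipitate percentiles then change places.

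The sequences of 5 ORFs are shown because they span the range of the set, and the first 120 bases of each coding sequence are taken from the RefSeq genome (build ASM294v3), read on the coding strand with the start codon in capitals. The cob (chrMT:10175-10294, plus strand) and cox2 (chrMT:18563-18682, plus strand) genes of the mitochondrial genome are among the lowest on all arrays. SPAC9.12c (atp12, chrI:1487936-1488055, minus strand) has the lowest E120D mean of the nuclear ORFs. The itr1 ORF (chrI:2641309-2641428, minus strand) has the lowest F060D value of the set outside the mitochondrial genome, and cut2 (chrII:2204087-2204206, minus strand) the highest F060D value of the set.
cob: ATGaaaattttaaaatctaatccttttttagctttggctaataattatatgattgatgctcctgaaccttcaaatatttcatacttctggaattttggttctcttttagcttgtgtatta
cox2: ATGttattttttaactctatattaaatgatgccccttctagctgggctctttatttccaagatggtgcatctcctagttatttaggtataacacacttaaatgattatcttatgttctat
SPAC9.12c: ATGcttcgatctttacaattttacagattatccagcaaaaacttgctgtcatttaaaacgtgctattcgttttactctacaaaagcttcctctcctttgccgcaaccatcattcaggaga
itr1: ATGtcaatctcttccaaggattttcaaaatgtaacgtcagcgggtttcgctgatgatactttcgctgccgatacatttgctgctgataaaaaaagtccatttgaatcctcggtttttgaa
cut2: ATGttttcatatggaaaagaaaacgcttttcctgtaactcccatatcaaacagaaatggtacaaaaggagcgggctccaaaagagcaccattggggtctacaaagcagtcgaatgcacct
G and C make up 29.5% of the whole coding sequence of cob and 30.9% of that of cox2, against 38.9% for SPAC9.12c, 41.0% for itr1 and 43.9% for cut2. The mitochondrial stretches are thus the most AT-rich of the 5.

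On E120D, the 450 ORFs had median centred log2 ratios of -1.53 on replicate 1 and -1.504 on replicate 2. Their values reached down to -3.84 and -4.49. For all 2693 ORFs the medians were -0.78 and -0.30, and 37.1% were at -1 or less on replicate 1 and 21.2% on replicate 2. The ratios of the 450 ORFs on the 2 slides differed by a median of 0.30, and repeat spots of one ORF on a slide by a median of 0.16 and 0.22. Spread between slides was therefore larger than spread between repeat spots of a slide.

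**Figure D1:**
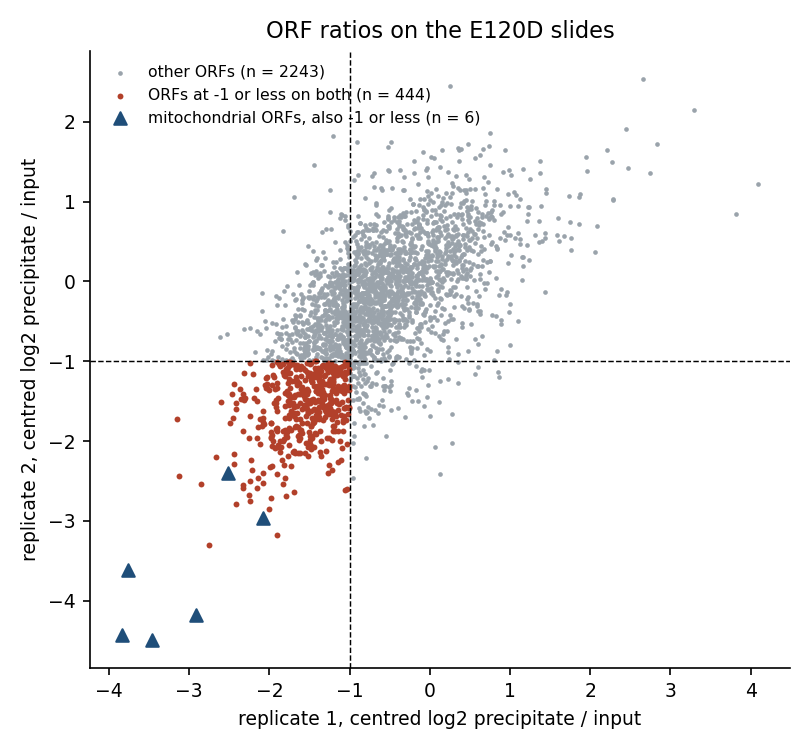
Each point is 1 of the 2693 ORFs with a ratio on both E120D slides. The axes give its centred log2 ratio of precipitate to input on replicate 1 and replicate 2, and the dashed lines mark -1. Red points and blue triangles are the 450 ORFs at -1 or less on both slides. The 6 mitochondrial ORFs, drawn as triangles, include the lowest values, -3.84 and -4.49, and some lie among nuclear ORFs.

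The threshold runs through a continuous cloud and not through a gap. In 85 of the 450 ORFs the higher of the 2 E120D values lay above -1.1, and in another 89 ORFs outside the set it lay between -1 and -0.9. The 5 ORFs nearest inside were SPBC530.08 (ntu2, a membrane-tethered transcription factor), SPBC16A3.04 (rsm25, a mitochondrial ribosomal protein), SPAC8F11.10c (pvg1, a Golgi pyruvyl transferase), SPBC119.07 (vps15, a protein kinase) and SPBC28F2.02 (mep33, linked to the translation machinery). The 5 nearest outside were imp2 (an F-BAR protein), hta1 (histone H2A), SPBC725.05c (npp1, a nucleotide pyrophosphatase), arp2 (an actin-related protein) and SPAC6G10.10c (uncharacterised). On F060D the 85 ORFs just inside had a median of -0.14 and the 89 just outside one of -0.21, so the order of these neighbours did not carry over.

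The F060D slide took no part in the choice of ORFs, but the direction of its ratio was taken from its correlation with the E120D slides. The side of 0 on which the set falls there is therefore not independent of E120D. It is a single array, so its values have no replicate and no test. The set had a median of -0.22 there, with a 95% binomial interval of -0.26 to -0.18 for the median that treats ORFs as separate values and covers no variation between arrays. The middle range of the values went from -0.44 to 0.00, the lowest was -2.51 and the highest 0.95. Of the 450 ORFs, 335 (74.4%) were below 0, against 60.9% of all ORFs measured and 58.2% of the other 2242 ORFs. At -1 or less there were 21 of the 450 (4.67%), against 2.56% of all ORFs measured and 2.14% of the other ORFs. None of the 450 reached 1, which 3.71% of all ORFs did. The set was on the low side of F060D as a whole, but by far less than on either E120D slide. Read with the same channel letters, the F060D median was 0.22, 25.6% of the set lay below 0 against 39.1% of all ORFs, and no ORF of the set was at -1 or less, against 3.71% of all ORFs.

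F060D values followed the E120D mean in steps when the mitochondrial ORFs were left out. The 43 ORFs with an E120D mean of -2 or less had an F060D median of -0.40, and 88.4% of them were below 0. The 192 ORFs between -2 and -1.5 had a median of -0.24, and the 467 between -1.5 and -1 one of -0.17. From -1 up to 0.5 the medians moved little, from -0.12 through -0.10 to -0.03. The 158 ORFs between 0.5 and 1 had a median of 0.06, and the 58 ORFs above 1 one of 1.28. The gradient between low and very low ORFs was thus far shallower on F060D than the one at the high end.

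**Figure D2:**
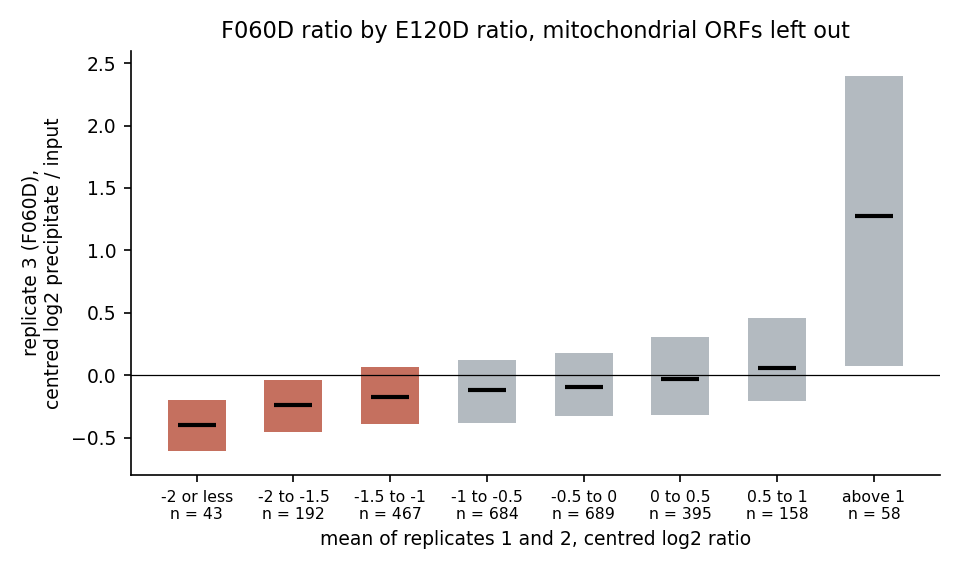
Bars give the middle range (lower to upper quartile) and black lines the median of the centred log2 ratio on F060D, for ORFs binned by the mean of replicates 1 and 2, with the number of ORFs under each bin. Mitochondrial ORFs are left out, and red marks bins with a mean of -1 or less. The median goes from -0.40 in the lowest bin to 1.28 in the highest.

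Across 2686 ORFs with the mitochondrial ones left out, replicates 1 and 2 correlated at Spearman rho = 0.66, replicates 1 and 3 at 0.31 and replicates 2 and 3 at 0.13. Within the 444 ORFs of the set not assigned to the mitochondrial genome these coefficients were 0.28, 0.30 and 0.08. The points share array, channel and spot brightness, and the choice of a threshold narrows their range. Rank within the set on replicate 1 went further with F060D than rank on replicate 2 did.

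Most mitochondrial ORFs were among the lowest of the set, and all were at -1 or less on the 3 arrays. By match or name, 8 ORF features of the array were assigned to the mitochondrial genome. Of these, 6 gave a ratio on both E120D slides, and all 6 are in the set. The cob ORF (chrMT:10175-13864), which encodes cytochrome b of respiratory complex III, had -3.84, -4.44 and -2.34 on replicates 1, 2 and 3. The cox1 ORF (chrMT:4885-8792), encoding subunit 1 of cytochrome c oxidase, had -3.47, -4.49 and -2.11. The cox2 ORF (chrMT:18563-19309), encoding subunit 2 of the same enzyme, had -2.52, -2.40 and -2.12.

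The other 3 mitochondrial features carry the name of the database entry of the mitochondrial DNA and no gene name, and they had between -2.08 and -3.77 on replicate 1, between -2.96 and -4.18 on replicate 2 and between -1.75 and -2.51 on replicate 3. The group medians were -3.19, -3.90 and -2.12. None of these values was above -1.75 on any array. Their input spots were among the brightest, with a median at percentile 98.4, 98.7 and 99.2 of the yeast features of replicates 1 to 3, while their precipitate spots stood at percentile 17.4, 0.746 and 58.9. Mitochondrial DNA is present in many copies per cell, and the amount of each spotted PCR product was not measured here. Without these 6 ORFs, the F060D median of the remaining 444 was -0.22, 74.1% lay below 0, and 15 (3.38%) were at -1 or less.

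Those 15 ORFs, not all of them matched to a gene, and the 6 assigned to the mitochondrial genome are the only ORFs at -1 or less on all 3 arrays. The lowest on F060D was itr1, which encodes a transporter of myo-inositol and had -1.67, -1.05 and -1.95. SPBP8B7.28c (stc1), whose product links the Clr4 methyltransferase complex to Argonaute in heterochromatin, had -3.16, -1.72 and -1.48. The alp11 ORF, for the tubulin-folding cofactor B, had -1.80, -1.15 and -1.33. Repeat spots of alp11 differed by 0.97 on F060D, and those of stc1 by 1.11 on replicate 2. On replicate 1 itr1 had 1 spot. The order of these ORFs differed between the arrays. Print blocks also differed on F060D, where all measured ORFs had a median of -1.04 in block 3, with itr1 and cki1. It was -0.61 in block 4 (stc1, alp11, erd2), -0.44 in block 6 (swr1, spb4, vma4, pi003) and -0.66 in block 8 (nfu1). The blocks of urf, cdc20, erf4, SPCC1450.12 and SPCC622.01c had medians between -0.42 and 0.08. With centring within print blocks, 10 of the 21 ORFs stayed at -1 or less on F060D. The part of print block was not tested.

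Among ORFs of the gene lists, cki1 (a casein kinase 1) had -1.06, -1.40 and -1.19. The cdc20 ORF (the catalytic subunit of DNA polymerase epsilon) had -2.03, -1.19 and -1.11. SPAC2H10.03c (swr1, the ATPase of the complex that places histone H2A.Z) had -1.53, -1.41 and -1.05. SPBC24C6.02 (spb4, an RNA helicase of ribosome assembly) had -1.99, -1.96 and -1.04. The uncharacterised SPCC622.01c had -1.78, -1.095 and -1.19, and the uncharacterised SPCC1450.12 had -1.23, -1.26 and -1.14. They cover replication, chromatin, signalling and ribosome assembly, with no list holding more than 2 of them.

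The rest of the 15, named here after their values were seen, were erd2 (the receptor that returns resident proteins to the endoplasmic reticulum), SPBC1709.19c (nfu1), SPAC3F10.07c (erf4), SPAC11E3.07 (vma4, a subunit of the vacuolar proton pump) and 2 features whose names RefSeq did not match, urf and pi003. The unmatched urf had -2.32, -1.48 and -1.54, and pi003 had -1.08, -1.19 and -1.26. The urf feature is printed in row 10 of its block, as are all 6 ORFs assigned to the mitochondrial genome. Whether urf is mitochondrial was not settled, and it is counted outside that genome throughout. Together the 21 ORFs make up 30.4% of the 69 ORFs at -1 or less on F060D. With the sign turned, 0 of the 100 ORFs at -1 or less are in the set. The other 48 missed the threshold on at least 1 E120D slide.

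The lowest nuclear ORFs by E120D mean were less extreme on F060D. SPAC9.12c (atp12), for an assembly chaperone of the mitochondrial F1-ATPase, had -2.76, -3.30 and -0.77. SPBC577.09 (ckn1), of the ERCC8 family in DNA repair, had -3.12, -2.43 and -0.80, and its repeat spots on replicate 2 differed by 1.64. SPBC1709.14 (ngl1), a peptide N-glycanase, had -2.85, -2.54 and -0.46. Each had a negative F060D value that lay much closer to 0 than its E120D values.

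The nda2 ORF (alpha tubulin) had -2.41, -2.79 and -0.72, and SPBC16G5.10 (rrp42, an exosome subunit) had -1.90, -3.18 and -0.15. At the other end of F060D were cut2 (securin, which holds separase back until anaphase) with -1.27, -1.55 and 0.95, and SPBC1289.12 (usp109, of the U1 spliceosomal particle) with -1.06, -1.59 and 0.94. SPBC119.09c (orm1, of the family that limits sphingolipid synthesis) had -1.02, -1.49 and 0.78. The rps3 feature, whose name fits both a nuclear and a mitochondrial gene in RefSeq and was left unmatched, had -1.09, -2.08 and 0.60, and byr3 (a zinc-finger activator of translation) had -1.52, -2.18 and 0.59. These 5 lay on opposite sides of the array median on E120D and F060D in the direction used.

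The input spots of the set were bright on all arrays. On replicates 1, 2 and 3 their median input signal stood at percentile 93.8, 90.5 and 84.3 of the yeast features, against 70.5, 53.8 and 66.2 for the other ORFs. Precipitate signal stood at 66.0, 37.7 and 75.4, against 55.4, 49.2 and 61.9. The set was therefore below the other ORFs in precipitate signal only on replicate 2. No ORF of the set had an input signal below percentile 56.1 on replicate 1 or 59.0 on replicate 2. Signal per spot depends on the amount and length of the spotted DNA as well as on the sample, so these percentiles say nothing of copy number.

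**Figure D3:**
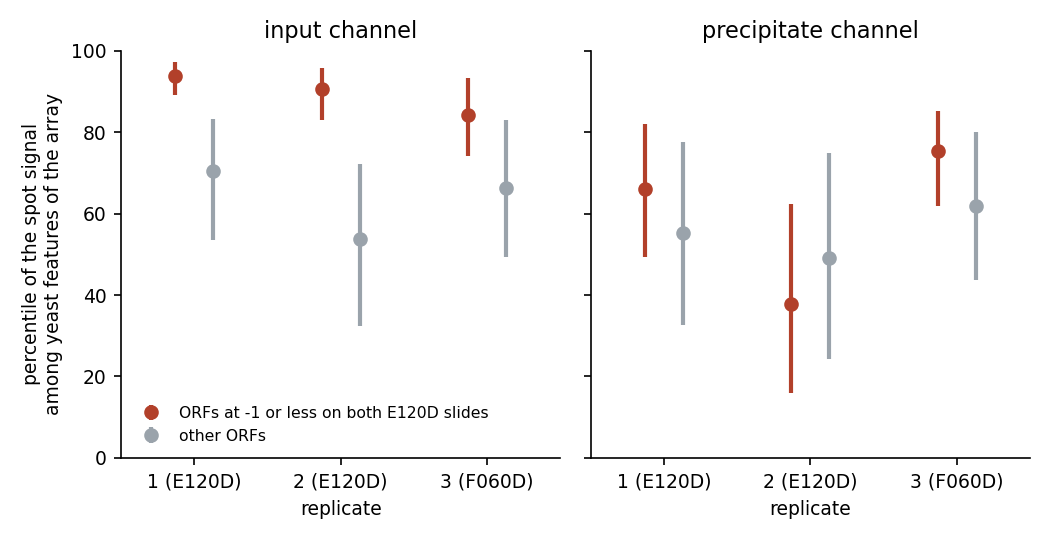
Points give the median and lines the middle range of the spot signal, as a percentile among all yeast features of the array, for the 450 ORFs (red) and the other ORFs (grey) on replicates 1 to 3. In the input channel the set stands above the other ORFs on all 3 arrays, 84.3 against 66.2 on F060D. In the precipitate channel it stands above them on replicates 1 and 3 and below them on replicate 2.

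Input signal is the denominator of the ratio, so bright input and a low ratio are not separate measures within an array. To compare across arrays, the ORFs not assigned to the mitochondrial genome were cut into 4 bins of equal size by their F060D input signal. The dimmest bin held 17 ORFs of the set (2.53% of the bin), and the shares were 11.6%, 22.2% and then 29.8% in the brightest bin. In the brightest bin the set had an F060D median of -0.29 and the other ORFs -0.20. In the middle bins the medians were -0.12 against -0.09 and -0.21 against -0.10, and in the dimmest bin they were -0.01 against -0.03. In the direction used, the set was thus below the other ORFs of like brightness in the 3 brighter bins and not in the dimmest. With the sign turned, input is the other channel, whose 4 bins held 4.46%, 15.6%, 22.8% and 23.2% from dim to bright, and the set lay above the other ORFs in each, with 0.13 against -0.21 in the brightest. The part of spot brightness in the ratios was not tested further, but a loess correction for brightness within each array left 105 ORFs at the threshold, 102 of them from the 450 and 6 of them mitochondrial.

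Which ORFs could enter the set was limited by detection. On replicate 1, 622 ORFs had signal in the precipitate channel but none in the input channel, and on replicate 2 there were 1681 such ORFs, while F060D had 0. ORFs with input signal and no precipitate signal, which have no ratio here either, numbered 12, 7 and 19. The set is thus a set of ORFs whose input was seen on E120D.

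The set was not evenly spread over the array or the chromosomes. The spots of a print block are laid out in 11 rows. Of the measured ORFs in row 1, 36.9% were in the set, in row 2 29.0% and in row 3 23.4%, against 7.04% to 14.3% in rows 4 to 11. In the 43 print blocks with 20 or more measured ORFs the share ran from 0 to 40.5%, and 11 of the 48 blocks held at least 50% of the set. On F060D the ORFs of rows 1 and 2 had medians of -0.12 and -0.02, against -0.11 for all ORFs. The share in the set thus differed between rows and blocks on E120D. Spot row and chromosome region cannot be fully told apart. The part of array layout in the choice of ORFs was not tested beyond the values that follow.

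Chromosome II held 221 ORFs of the set, 20.6% of its measured ORFs, against 14.3% on chromosome I and 13.4% on chromosome III. Nearly all ORFs printed in rows 1 and 2 are from chromosome II. There, 133 of 410 chromosome II ORFs were in the set (32.4%) and 7 of 32 chromosome I ORFs (21.9%), while in rows 3 to 11 the share on chromosome II was 13.3%, against 14.1% on chromosome I and 13.4% on chromosome III. Outside rows 1 and 2 the chromosomes therefore had nearly the same share. With rows 3 to 11 only, 308 ORFs were left, with an F060D median of -0.26 and 5.84% at -1 or less.

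**Figure D4:**
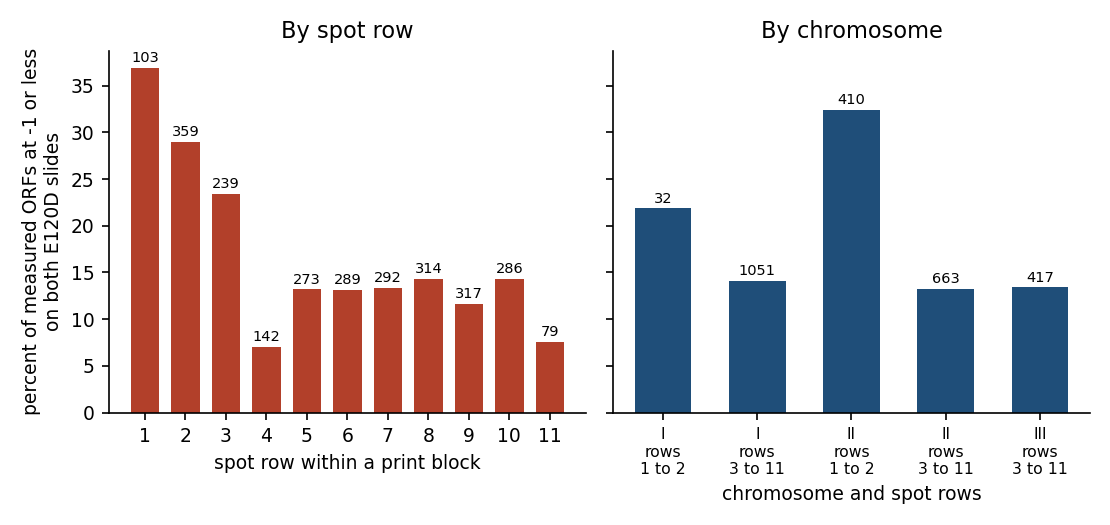
Bars give the percent of measured ORFs at -1 or less on both E120D slides, by spot row within a print block (left) and by chromosome and spot rows (right). Numbers over the bars are the measured ORFs. Row 1 has 36.9% and row 4 has 7.04%. Chromosome II has 32.4% in rows 1 to 2, where chromosome I has 32 measured ORFs and chromosome III none, and 13.3% in rows 3 to 11.

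Some ORFs of the set were neighbours on the chromosome. Of 1464 neighbouring gene pairs with both ORFs measured, 62 had both in the set. A measured neighbour of an ORF of the set was itself in it in 23.9% of cases, against 17.7% of the genes in these pairs. Neighbours are usually printed in the same spot row, as in 1407 of the pairs, so position on the chromosome and on the array cannot be told apart. There were 36 runs of 2 neighbours, 10 of 3 and 2 of 4, and 110 ORFs of the set stood in such runs.

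Both runs of 4 are on chromosome II and printed in row 1. The first comprised SPBC16G5.09 (kex1, a carboxypeptidase), SPBC16G5.10 (rrp42), bag1-a (a co-chaperone of heat shock protein) and top3 (DNA topoisomerase III). Its F060D values were -0.71, -0.15, -0.35 and -0.17. The second comprised ufd1 (of the machinery that extracts ubiquitylated proteins), SPBC16A3.08c (oga1), SPBC16A3.07c (nrm1, a corepressor of G1/S transcription) and SPBC16A3.06 (tad1, a tRNA deaminase). Its F060D values were -0.13, -0.07, 0.06 and -0.35. On F060D 7 of these 8 ORFs were below 0 (1 with the sign turned), against 74.4% of the whole set (25.6%), and none was at -1 or less. In the lowest pairs by E120D mean, SPBC887.04c (lub1) and SPBC887.05c (cwf29) had F060D values of -0.16 and -0.84, SPBC16E9.10c (rix7) and SPBC16E9.11c (pub3) -0.53 and -0.80, and SPAC17H9.04c (dri1) and SPAC17H9.05 (ebp2) -0.10 and -0.30.

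Base composition and length of the coding sequence separated the set little from other ORFs. Of the 450 ORFs, 435 were matched to a gene in RefSeq. Their median GC content was 40.3%, against 40.02% for the other ORFs. Their median coding length was 1296 bases against 1233, and 56.3% had a single coding exon against 58.5%. In 4 bins of GC content, from low to high, 13.7%, 17.4%, 21.2% and 14.9% of the ORFs were in the set. In 4 bins of length the shares were 13.3%, 18.7%, 16.6% and 18.6%. The shortest bin and the extremes of GC content thus had the fewest. The 3 mitochondrial ORFs with a match had 29.5%, 30.9% and 33.0%, and the matched nuclear ORFs of the set began at 33.2%.

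The intergenic features were not low beside these ORFs. An intergenic feature with the same gene name was measured for 268 ORFs of the set on replicate 1, for 115 on replicate 2 and for 393 on replicate 3, and the medians of these features were 0.48, 0.54 and 0.15. For the other ORFs they were 0.58, 0.57 and 0.19. On F060D, 8.91% of the intergenic features named after the set were at 1 or more, against 16.6% of those named after other ORFs, and on replicates 1 and 2 the shares were 26.1% against 30.9% and 22.6% against 29.9%. The share was lower beside the set on both E120D slides and, in the direction used, on F060D. With the sign turned, the F060D shares were 0.509% beside the set and 0.350% beside other ORFs, so the order was the opposite. These differences were not tested.

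Of 112 ORFs whose intergenic feature gave a ratio on all 3 arrays, 7 had it at 1 or more on all of them (0 with the F060D sign turned), and 1 had it at -1 or less on both E120D slides. The same counts were not made for the other ORFs, so these counts cannot show a trait of the set. An example of the 7, picked after its values were seen, is sty1, which encodes the stress-activated MAP kinase. Its ORF had -1.24, -1.42 and 0.07 and its intergenic feature 1.72, 1.29 and 2.16. SPAC19B12.02c (gas1, a glucan-remodelling enzyme of the cell wall) had -1.07, -1.17 and 0.22 in the ORF and 1.97, 1.40 and 2.13 in the intergenic feature. SPAC8F11.10c (pvg1) had -1.003, -1.58 and -0.11 in the ORF against 1.90, 2.26 and 1.80. In these genes the ORF and the DNA beside it lay on opposite sides of the median on E120D, which their choice by both values required. Over all features, the ORF medians were -0.48 and -0.28 and the intergenic medians 0.50 and 0.50 on replicates 1 and 2. The exception, SPBC11C11.10, had -1.83, -1.87 and -0.04 in the ORF and -1.79, -1.58 and -0.53 in the intergenic feature.

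Functions were assigned through 25 gene lists built from RefSeq product names and symbols, and 166 ORFs of the set fell in at least 1 list. A list holds only ORFs whose product name or symbol matched, so it can miss genes of its function or hold others. For example, SPAC9.12c (atp12) and SPBC887.05c (cwf29) are in no list. The background for each list is the 16.7% of all measured ORFs that are in the set. For counts of its ORFs below 0 on F060D, the background is the 74.4% of the whole set (25.6% with the sign turned). Because the lists were read against the values that chose the set, the counts describe it and carry no test.

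The corepressor itself was in the set, but this depended on the processing. The E120D mean of tup11, -1.38, was -0.998 with centring on ORF features, -0.72 after loess and -0.78 with centring within print blocks. It was -1.14 with centring on features measured on all 3 arrays, -1.53 with the median spot signal and -1.48 after normexp. Of 7 measured ORFs for the corepressor and its partners, 2 were members: SPAC18B11.10 (tup11) had -1.36, -1.41 and 0.31, and SPBC23E6.09 (ssn6), its partner subunit, had -1.87, -1.03 and 0.07. Both lay above 0 on F060D. Of 19 measured ORFs of genes known for repression by Tup11 or for regulation by glucose, iron, phosphate or stress, 0 were in the set. Their medians of 0.21, 0.70 and 0.55 were above those of all ORFs on each array in the direction used.

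ORFs matched by name as protein kinases had the highest share among the lists with at least 20 measured ORFs: 16 of 56 (28.6%). The 16 include SPAC4F10.07c (atg13), whose product is a regulatory subunit. Their lowest F060D values belonged to cki1, already given, to sid2 (an NDR kinase of the septation pathway) with -2.14, -1.82 and -0.75, to cmk2 (a kinase activated by MAP kinase) with -2.49, -1.78 and -0.63, and to SPAC167.01 (ire1, the sensor of unfolded protein) with -2.11, -1.73 and -0.56. On F060D 11 of the 16 were below 0 (5 with the sign turned) and 1 was at -1 or less. The median of all 56 ORFs of this list was -0.97 and -0.55 on E120D and -0.14 on F060D, close on F060D to the -0.11 of all ORFs.

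Genes of DNA replication and repair had 10 of 45 (22.2%), and 9 of these 10 were below 0 on F060D (1 with the sign turned), where 74.4% of the whole set was. Besides ckn1 and cdc20 they included lig4 (the ligase of non-homologous end joining) with -2.33, -1.41 and -0.85 and mcm6 (of the replicative helicase) with -1.15, -1.53 and -0.76. The cdc genes had 4 of 16 (25%), among them cdc13 (mitotic cyclin) with -1.37, -1.26 and 0.35 and cdc15 (a ring protein of cytokinesis) with -1.35, -1.46 and 0.10. The cdc list also holds cdc20, counted with the replication genes, and cdc27 (a subunit of DNA polymerase delta) with -1.43, -1.51 and -0.16, so 2 of its 4 ORFs were below 0 on F060D in either reading.

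Gene expression machinery was near the background. RNA polymerase subunits had 4 of 17 (23.5%), with rpc34 of RNA polymerase III at -1.67, -1.73 and -0.34. Cytosolic ribosomal proteins had 12 of 62 (19.4%), of which 7 were below 0 on F060D (5 with the sign turned) and none was at -1 or less. Ribosome biogenesis had 9 of 43 (20.9%), translation initiation 3 of 23 (13.04%), splicing 5 of 40 (12.5%), helicases 5 of 29 (17.2%) and methyltransferases 5 of 36 (13.9%). For aminoacyl-tRNA synthetases the product-name match caught 3 measured ORFs, 0 of them in the set. That match left out ths1, which is in the set at -1.26 and -1.30 on E120D. Among the initiation factors SPBC4B4.04 (eIF2A) had -1.87, -2.14 and -0.61, and among the splicing factors sap62 had -2.04, -1.21 and -0.51.

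Regulators of chromatin and transcription had no excess. Chromatin and histone modifiers had 8 of 79 (10.1%), the lowest share among the lists with a member. They include swr1, given above, SPAC10F6.08c (nht1, of the Ino80 remodeller) with -2.03, -1.33 and -0.69, and SPBC31F10.14c (hip3, of the HIRA histone chaperone) with -1.80, -2.46 and -0.37. Transcription factors had 10 of 61 (16.4%). SPAC144.09c (sfc2, TFIIIA) had -1.73, -1.86 and -0.52, and 8 of the 10 were below 0 on F060D (2 with the sign turned).

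Transmembrane transporters had 27 of 134 (20.1%). After itr1, the lowest on F060D was SPBC25H2.08c (mrs2, a magnesium transporter) with -1.05, -1.01 and -0.57, then SPBC409.08 of the spermine family with -1.16, -1.76 and -0.57, and then SPCC417.10 (dal51, a dipeptide transporter) with -2.33, -2.59 and -0.50. Vesicle traffic had 7 of 39 (17.9%), all below 0 on F060D (0 with the sign turned), with sec31 of the COPII coat at -1.99, -2.32 and -0.72 and the SNARE sed5 at -1.73, -1.64 and -0.48. ORFs matched by product name as nuclear genes of mitochondrial proteins had 8 of 38 (21.1%), of which SPBC1539.01c (mrpl15) had -2.19, -1.45 and -0.52. This match left out SPAC9.12c (atp12) and SPBC1289.09 (tim21), both in the set. Mitochondrial ribosomal proteins had 5 of 25 (20%).

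The remaining lists were small or below the background, apart from the AAA ATPases. The ubiquitin system had 8 of 65 (12.3%), with SPBC36B7.05c (pib1, a ubiquitin ligase of endosomes) at -2.06, -1.78 and -0.84 and SPBC16E9.11c (pub3) at -1.96, -2.06 and -0.80. The proteasome had 3 of 21 (14.3%), uncharacterised products 17 of 132 (12.9%), AAA ATPases 2 of 8 (25%) and nucleoporins 0 of 13.

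**Figure D5:**
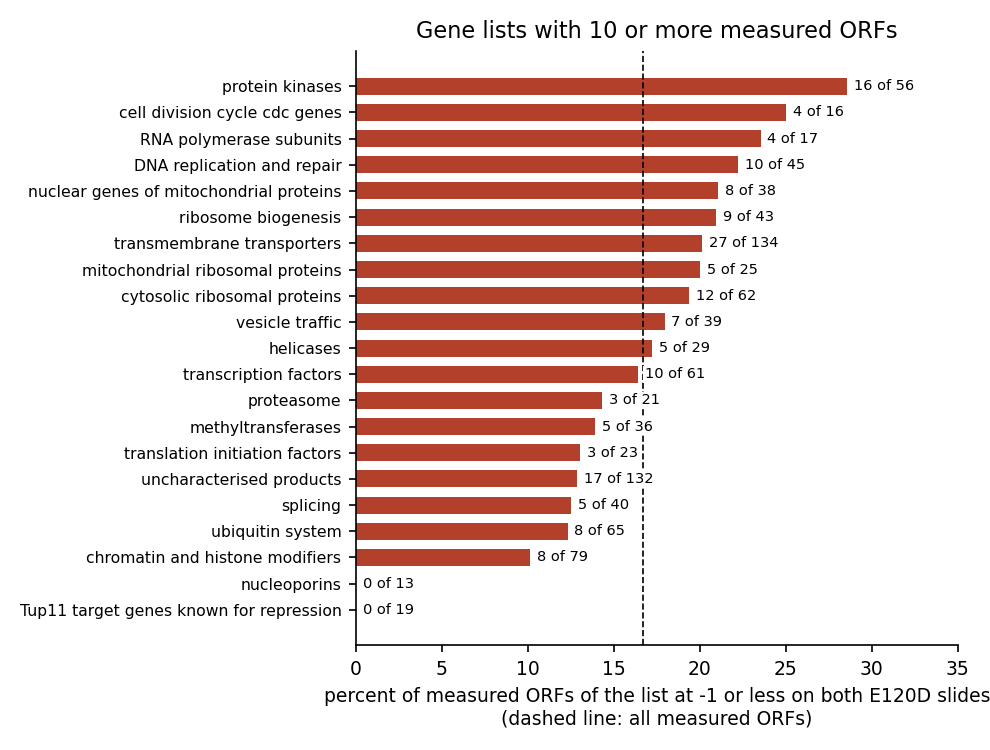
Bars give, for each gene list with 10 or more measured ORFs, the percent at -1 or less on both E120D slides, with the counts beside each bar. The dashed line is the 16.7% of all measured ORFs. Protein kinases reach 28.6% and chromatin and histone modifiers 10.1%. The list labelled as Tup11 target genes had 0 of 19 in the set, and it also holds genes known for regulation by glucose, iron, phosphate or stress.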

How the data were processed

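The 3 arrays form 1 group, and no sample was left out. The deposited scanner tables hold, for channels A and B, spot intensity on a linear scale, as TIGR Spotfinder integrated it after background subtraction, per the labels' protocols and the file headers. The deposited value tables hold log10 values of what behaves as a single channel, with ORF and intergenic names exchanged, so that they served only as an alternative for F060D. ORF names were taken from the scanner tables. The genome build behind them is not given in the sources used here.

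Yeast spots with both intensities above 0 and both flags C were used, 14300, 7277 and 19872 on replicates 1 to 3. The log2 ratios were averaged over repeat spots and centred on the median of all yeast features of the array, with no other normalization. No p-value was computed: all 3 arrays belong to 1 group, E120D chose the ORFs, and F060D is 1 array. The median intervals are binomial order-statistic intervals over ORFs. The number of arrays limits the precision.

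Names were matched to RefSeq (ASM294v3) symbols, locus tags and unambiguous synonyms, 4805 of 5033 ORF features. The named ORFs are those lowest or highest on E120D or F060D, nearest to the threshold, brightest in input, mitochondrial, in runs of neighbours, or lowest on F060D within a list. The ORFs, lists and alternatives were chosen with earlier results of these data known. The alternatives on spot rows, ORF-centred print blocks and mitochondrial ORFs were chosen after seeing the data. The rule was run on simulated data with reduced noise, independent between slides, and with all ORFs not lowered on purpose at the median. The real arrays differ from this, so the run gives no support for the set. Tools were Python 3.11.15, pandas 2.3.3, statsmodels 0.14.6 (lowess span 0.3) and, in R 4.3.3, limma 3.58.1 (normexp, offset 50, on spots above 0 in both channels).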

Additional observations from a re-analysis of the deposited data

How the results depend on the processing

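The number of ORFs in the set depended on how the arrays were centred and corrected. Against 450, it was 188 with centring on ORF features, 245 with centring on features measured on all 3 arrays, 105 after loess, 745 after normexp background correction, 152 with dim features left out, and 696 and 139 at thresholds of -0.75 and -1.5. All of the 188 and 245 ORFs, 102 of the 105 and 381 of the 745 belong to the 450. It was 390 with centring within print blocks, of which 305 (67.8% of the 450) are shared, 390 with blocks centred on their ORF features, of which 293 are shared, 601 with the median spot signal, 461 with all flags and 450 with the median of repeat spots. It was 572 without replicate 1, 1113 without replicate 2 and, as F060D took no part, 450 without replicate 3.

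The F060D median, -0.22, stayed below 0 under every alternative that kept the direction of the ratio, at -0.18 with ORF centring, -0.28 with shared features, -0.41 after loess, -0.31 after normexp, -0.28 within print blocks, -0.34 at -1.5, -0.26 without dim features and -0.26 in spot rows 3 to 11. It reversed to 0.22 when F060D was read as channel B over A, with 25.6% below 0, 0 at -1 or less and 3.71% of all ORFs at -1 or less. It was 0.68 in the deposited value table, which holds a single channel and no ratio, with 12.5% below 0 and 0 at -1 or less. All ORFs had 0.30 there.

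The share below 0 was 83.7% with shared features, 91.4% after loess, 76.4% after normexp, 82.8% within print blocks, 70.0% and 86.3% at -0.75 and -1.5, 80.9% without dim features and 78.6% in spot rows 3 to 11. For all ORFs it was 60.6% with shared features, 63.0% after loess, 60.5% after normexp and 63.2% within print blocks. The share of the set at -1 or less was 8.57% after loess, against 2.67% of all ORFs, and 1.97% without dim features, where the mitochondrial ORFs drop out. ORF centring put 1.78% of all ORFs at -1 or less on F060D. Median coding length was 1440 at -1.5, and the median input percentile over both E120D slides, 91.7, was 88.7 at -0.75 and 95.5 at -1.5. With 1 E120D slide left out it ranged from 88.1 to 90.4. Of the 166 ORFs in a list, 13 were also at -1 or less on F060D. The causes of these shifts were not tested.

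No paired analysis was possible because the 3 arrays form 1 group. The mean E120D ratio of the 129 named ORFs of the set kept its sign under the 6 alternatives run on it, and 68 were still at -1 or less after loess. These ORFs were chosen at -1 or less on the same slides, so the kept sign is no independent support.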
